A study of Mus musculus with 12 samples.

Results

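The genes described here are Ppia, Hsp90ab1 and Rpl13a, which make proteins that fold other proteins or build the ribosome. They were taken by name from the scanner files, where a RefSeq accession labels 15 genes among 60915 probes, and each is read by 1 probe spotted in 20 copies. The RNA came from brain tissue of BALB/c mice, all male and 10 weeks old, dissected under a stereomicroscope and read in a single colour (Cy3) on an Arraystar array of long noncoding RNAs and mRNAs. The 4 regions were the olfactory bulb, the hypothalamus, the hippocampus and the cerebellum, with 3 scans each, and the labels give no treatment or genetic change for any of them. The series text gives 3 mice for the arrays, and no label ties a scan to a mouse, so p-values measure the spread between arrays, which may be technical.

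Ppia encodes cyclophilin A, a peptidyl-prolyl isomerase that turns proline bonds during folding and is the target of cyclosporin. Hsp90ab1 encodes HSP90 beta, the constitutive cytosolic form of a chaperone that matures kinases and steroid receptors with the help of co-chaperones. Rpl13a encodes a protein of the large ribosomal subunit, and in human monocytes the free protein is also known to take part in silencing the translation of inflammatory mRNAs. All of them are used widely as reference genes in quantitative PCR, including in brain, a use that assumes that their transcript levels differ little between samples. Of 25 other folding and protein synthesis genes listed as company for them, 0 have a named probe, so the pathway beyond these genes was not analysed here. Of 22 markers of the regions and of other brain cells, 0 have a named probe, and the labelled tissues were therefore not checked against markers.

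Ppia lies on chromosome 11, Hsp90ab1 on chromosome 17 and Rpl13a on chromosome 7. Rpl13a holds 5 small RNA genes within its bounds (Mir5121, Snord32a, Snord33, Snord34 and Snord35a), and the RefSeq table lists 1 pseudogene named after it, Rpl13a-ps1. Probe sequences were not used here, so signal from near-identical copies, of which Ppia and Rpl13a are known to have many as processed pseudogenes, could not be told apart from signal of the genes. The 250 bases before the start site are shown for Ppia and Rpl13a, the genes with an entry in the RefSeq promoter table (build GRCm38.p6). Hsp90ab1 has no entry there and is not shown. The Ppia promoter is chr11:6415617-6415866 on the plus strand and the Rpl13a promoter is chr7:45128746-45128995 on the minus strand, both written 5′ to 3′ on the strand of the gene, with capitals marking the TATA box letters, the CCAAT box letters and the GC box letters on either strand.
Ppia: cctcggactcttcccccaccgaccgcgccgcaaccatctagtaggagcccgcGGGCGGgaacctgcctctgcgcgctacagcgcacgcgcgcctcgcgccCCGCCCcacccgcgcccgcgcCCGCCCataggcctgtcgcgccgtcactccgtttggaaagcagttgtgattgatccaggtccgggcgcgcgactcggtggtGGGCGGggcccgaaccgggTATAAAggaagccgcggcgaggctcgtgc
Rpl13a: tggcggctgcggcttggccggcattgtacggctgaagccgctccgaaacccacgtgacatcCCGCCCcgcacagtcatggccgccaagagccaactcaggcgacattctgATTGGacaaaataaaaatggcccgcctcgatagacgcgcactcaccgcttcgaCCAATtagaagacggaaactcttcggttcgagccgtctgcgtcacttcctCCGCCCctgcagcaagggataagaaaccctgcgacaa
The letters searched were TATAAA for the TATA box, then CCAAT for the CCAAT box, then GGGCGG for the GC box, each with its reverse complement. The Ppia promoter holds 1 TATA box, 4 GC boxes and 0 CCAAT boxes. The Rpl13a promoter holds 0 TATA boxes, 2 CCAAT boxes and 2 GC boxes. Among 32851 promoters of the same length, 12.4% hold a TATA box, 33.8% a CCAAT box and 32.7% a GC box by these letters. None of these motifs overlaps another in the windows shown, and a match describes the letters only.

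Between 87.9% and 93.2% of probes on a scan were well above background, 0 spots were saturated, and scans had medians of 290.7 to 443.2 intensity units in the processed signal. Among 15229 bright probes, hippocampus replicates 1 and 3 gave log2 differences with an SD of only 0.0278, and cerebellum replicates 1 and 3 of 0.0263, below the SD of copies on a scan pooled over the 15 probes with copies (root mean square), 0.0779 at its lowest among the scans. Copies of a single bright probe could lie closer, down to an SD of 0.0133 for Hsp90ab1 on 1 scan. For the remaining same-region pairs this SD was 0.313 to 0.51. Each near-identical pair, having differed by less than that pooled spread of copies, was averaged and counted as 1 sample, which leaves 3 olfactory bulb, 3 hypothalamus, 2 hippocampus and 2 cerebellum arrays. On the main scale, defined below, the genes described here moved within those pairs by -0.01 to -0.04 (log2, second scan minus first). Without scaling, each of these genes was dimmer on the second scan in both regions. Ppia in the hippocampus, for example, went from 17.70 to 17.58 (log2). In bulk tissue, fewer cells of a type and less RNA per cell cannot be told apart. Each region also carried its own barcode value in the scan headers, taken here to stand for a fixed position on the slides. The region and that position cannot be told apart.

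The copies of the Ppia probe lay close together. The signal, the geometric mean of the copies in intensity units, was 268754, 258190 and 269022 on the olfactory bulb scans (replicates 1, 2 and 3). It was 207270, 201283 and 212865 on the hypothalamus scans, 212588, 208476 and 196130 on the hippocampus scans, and 237964, 236707 and 220887 on the cerebellum scans. Before any scaling, every olfactory bulb scan was therefore brighter for this probe than every scan of the other regions. The brightest copy reached 36.4% of the saturation value, and the SD of the copies on a scan was 0.0245 (log2) at the median scan.

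The Hsp90ab1 probe read 35283, 30755 and 30344 intensity units on the olfactory bulb scans and 28945, 25789 and 26340 on the hypothalamus scans. It read 34966, 31218 and 32666 on the hippocampus scans, and 44322, 40484 and 41041 on the cerebellum scans. Every cerebellum scan was above every scan of the other regions before scaling, and the copies on a scan had a median SD of 0.034 (log2).

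The Rpl13a probe read 14408, 11517 and 10882 intensity units on the olfactory bulb scans and 11000, 9266 and 8893 on the hypothalamus scans. It read 10065, 8234 and 9319 on the hippocampus scans, and 11009, 9110 and 10043 on the cerebellum scans. Olfactory bulb replicates 1 and 2 were above all scans of the other regions before scaling, and the rest overlapped between regions. The copies on a scan had a median SD of 0.0435 (log2). For each gene 240 of 240 copies were well above background, and 10 copies of Ppia, 6 of Hsp90ab1 and 16 of Rpl13a were marked as outliers and left out.

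**Figure D1:**
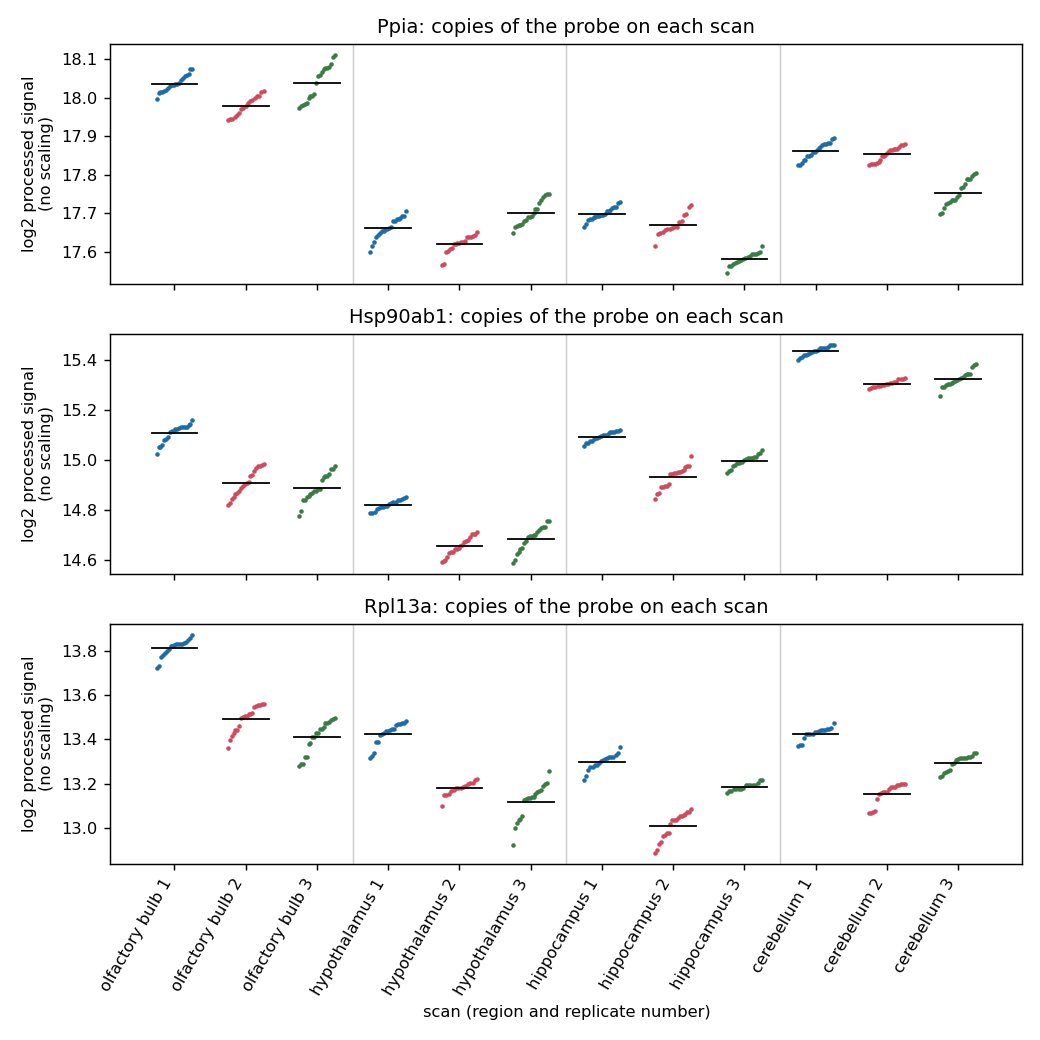
Log2 processed signal, without scaling, of each copy of the Ppia, Hsp90ab1 and Rpl13a probes (y) on the 12 scans (x), with copies sorted within a scan, colours for the replicate number and a line at the mean. The copies of a scan lie close together, with median SDs of 0.0245, 0.034 and 0.0435. Scans of a region spread most for Rpl13a, and some overlap, such as Ppia on olfactory bulb replicates 1 and 3 (means of 18.036 and 18.037).

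Levels between arrays depend on how the arrays are scaled, since the 75th percentile of the signal was 1491 to 1617 intensity units on olfactory bulb scans, 1108 to 1126 on hypothalamus scans, 1169 to 1263 on hippocampus scans and 1402 to 1578 on cerebellum scans. The main scale was the log2 signal minus that percentile. A region difference was called at a Benjamini-Hochberg adjusted p under 0.05 over all 56573 probes tested in limma, with a spread estimated from the arrays of all regions. A second fit added the replicate number as a block. That number coincides with the scan time of the arrays counted (of replicate 1, for the averaged pairs), a batch that holds all regions on numbers 1 and 2 and the olfactory bulb and the hypothalamus on number 3.

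Over the 4 regions, 0 of the 3 genes passed the test, against 36.1% of all probes tested, and all 3 passed with the replicate block, against 54%. The adjusted p was 0.0637 for Hsp90ab1, 0.202 for Ppia and 0.321 for Rpl13a without the block, and 0.00122, 0.0278 and 0.0013 with it, in the same order. At an unadjusted limma p under 0.05, Hsp90ab1 was the only 1 to pass without the block. Their region means spanned 0.43 (Hsp90ab1), 0.42 (Rpl13a) and 0.26 (Ppia) on the log2 scale, below the median span of 0.64 of all probes tested. The residual SD between arrays of a region was 0.0608 for Ppia, 0.112 for Hsp90ab1 and 0.193 for Rpl13a, against a median of 0.206 over all probes. Each of these genes is a mean of 20 copies of a bright probe, while most probes tested are single spots. Their spans and SDs are therefore not like for like with those of all probes.

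Hsp90ab1, the HSP90 beta chaperone, was highest in the cerebellum under all 5 scalings tried and lowest in the olfactory bulb under all but the values without scaling. On the 75th percentile scale its levels were 4.45, 4.26 and 4.35 on the olfactory bulb arrays and 4.71, 4.52 and 4.55 on the hypothalamus arrays. They were 4.81 and 4.63 on the hippocampus arrays, and 4.88 and 4.68 on the cerebellum arrays. The olfactory bulb arrays lay below all others without overlap, whereas the hypothalamus, hippocampus and cerebellum arrays overlapped.

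The mean was 4.35 ± 0.0934 for the olfactory bulb (SD, n = 3) and 4.59 ± 0.102 for the hypothalamus (SD, n = 3). It was 4.72 ± 0.13 for the hippocampus (SD, n = 2) and 4.78 ± 0.143 for the cerebellum (SD, n = 2). Olfactory bulb minus cerebellum was -0.43 (SE 0.117, 1.35-fold lower, limma adjusted p = 0.0343), the only 1 of the 6 pairs of regions called for this gene, in a comparison where 21.6% of all probes were called (20.3% for olfactory bulb minus hippocampus, 23.4% for olfactory bulb minus hypothalamus, 16.9% for hypothalamus minus hippocampus, 26.2% for hypothalamus minus cerebellum and 23.3% for hippocampus minus cerebellum). The others with an unadjusted p under 0.05 came to 1, olfactory bulb minus hippocampus (-0.37, limma adjusted p = 0.0656). Leaving out any of 6 arrays ended that call: adjusted p was 0.104 without olfactory bulb replicate 2, 0.0849 without olfactory bulb replicate 3, 0.0543 without hypothalamus replicate 2, 0.061 without hypothalamus replicate 3, 0.217 without cerebellum replicate 1 and 0.0509 without cerebellum replicate 2.

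The arrays of a shared replicate number ran in parallel for Hsp90ab1. Within numbers 1 and 2, olfactory bulb minus cerebellum was -0.44 and -0.42 (log2), and olfactory bulb minus hippocampus was -0.36 and -0.37. Olfactory bulb minus hypothalamus was -0.26, -0.26 and -0.20 within numbers 1, 2 and 3. With the replicate block, 4 of the 6 pairs were called. The olfactory bulb was lower than the hypothalamus (-0.24, SE 0.0327, limma adjusted p = 0.00289, with 41.4% of all probes called), than the hippocampus (-0.36, adjusted p = 0.00142, 37.3%) and than the cerebellum (-0.42, adjusted p = 0.000705, 36.2%). The hypothalamus was lower than the cerebellum (-0.18, adjusted p = 0.0153, 42.1%).

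The neighbours in that order were not told apart in every case. Hypothalamus minus hippocampus was -0.12 with the block (95% interval -0.21 to -0.02, limma adjusted p = 0.0771, with 32.6% of all probes called). Hippocampus minus cerebellum was -0.06 (95% interval -0.17 to 0.04, adjusted p = 0.282, with 41.6% of all probes called).

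Rpl13a, the ribosomal protein gene, was highest in the hypothalamus and lowest in the cerebellum under the same scalings, an order that did not hold without scaling. Its levels on the 75th percentile scale were 3.16, 2.84 and 2.87 on the olfactory bulb arrays and 3.31, 3.04 and 2.98 on the hypothalamus arrays. They were 3.01 and 2.70 on the hippocampus arrays, and 2.86 and 2.53 on the cerebellum arrays. Neighbouring regions overlapped, and the hypothalamus arrays all lay above the cerebellum arrays.

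The mean was 2.96 ± 0.173 for the olfactory bulb (SD, n = 3), 3.11 ± 0.176 for the hypothalamus (SD, n = 3), 2.86 ± 0.215 for the hippocampus (SD, n = 2) and 2.70 ± 0.236 for the cerebellum (SD, n = 2). Hypothalamus minus cerebellum was 0.42 (SE 0.172, 95% interval 0.02 to 0.82) and did not pass (limma adjusted p = 0.128, with 26.2% of all probes called). Without the block 0 of the 6 pairs were called for Rpl13a, and 1 had an unadjusted p under 0.05.

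The spread of Rpl13a within regions followed the replicate number. Number 1 lay above its region mean in 4 of 4 regions, by 0.15 to 0.20 (log2), and number 2 lay below in 4 of 4, with deviations of -0.17 to -0.07. The same held for Hsp90ab1 at a smaller size, with number 1 above in 4 of 4 regions by 0.09 to 0.12. For Ppia the number 1 deviations were -0.02 to 0.04, above in 3 of 4 regions, and number 2 lay below in 4 of 4, with deviations of -0.07 to -0.02. Number 3, in the olfactory bulb and hypothalamus only, lay above for Ppia (0.03 to 0.09). It lay below for Rpl13a (-0.13 to -0.09) and Hsp90ab1 (-0.043 to -0.005), so the pattern of the numbers differed between genes. In the hippocampus and cerebellum, with 2 arrays each, the deviations of numbers 1 and 2 mirror each other.

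With the replicate block all 6 pairs were called for Rpl13a, in comparisons where 32.6% to 42.1% of all probes were called. Hypothalamus minus cerebellum became 0.47 (SE 0.0409, 1.39-fold, limma adjusted p = 0.000493), and it was 0.45 and 0.51 within numbers 1 and 2. Hypothalamus minus hippocampus was 0.31 (adjusted p = 0.00336), olfactory bulb minus cerebellum was 0.31 (adjusted p = 0.0027), and olfactory bulb minus hypothalamus was -0.16 (adjusted p = 0.0183). The smallest steps were olfactory bulb minus hippocampus at 0.15 (adjusted p = 0.0364) and hippocampus minus cerebellum at 0.16 (adjusted p = 0.0328). These counts rest on the scale: with the block, 4 of the 6 pairs were called under quantile normalization (37.6% of all probes over the 6 pairs together), 3 with the median (36.1%), 3 with the 12 other named genes (41.7%) and 4 without scaling (48.4%). Without scaling olfactory bulb minus hypothalamus turned to 0.33 with the block (limma adjusted p = 0.00161, with 64.3% of all probes called).

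Ppia, the cyclophilin A gene, had the smallest span of region means of the 3 genes under each of the 5 scalings. Its levels on the 75th percentile scale were 7.38, 7.33 and 7.50 on the olfactory bulb arrays and 7.55, 7.48 and 7.56 on the hypothalamus arrays. They were 7.41 and 7.37 on the hippocampus arrays, and 7.31 and 7.23 on the cerebellum arrays. The cerebellum arrays lay below all others, and the hippocampus arrays lay within the range of the olfactory bulb arrays.

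The mean was 7.40 ± 0.0852 for the olfactory bulb (SD, n = 3), 7.53 ± 0.0426 for the hypothalamus (SD, n = 3), 7.39 ± 0.0279 for the hippocampus (SD, n = 2) and 7.27 ± 0.0571 for the cerebellum (SD, n = 2). The widest step, hypothalamus minus cerebellum, was 0.26 (SE 0.0895, 1.2-fold, 95% interval 0.05 to 0.47) and was not called (limma adjusted p = 0.0696). Without the block 0 of the 6 pairs were called, and 1 had an unadjusted p under 0.05. With the replicate block 2 of the 6 were called: olfactory bulb minus hypothalamus at -0.13 (limma adjusted p = 0.0405, with 41.4% of all probes called) and hypothalamus minus cerebellum at 0.23 (adjusted p = 0.00947, 42.1%). The 6 blocked pairs had shares of 32.6% to 42.1%, so that 2 of 6 is near the background.

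**Figure D2:**
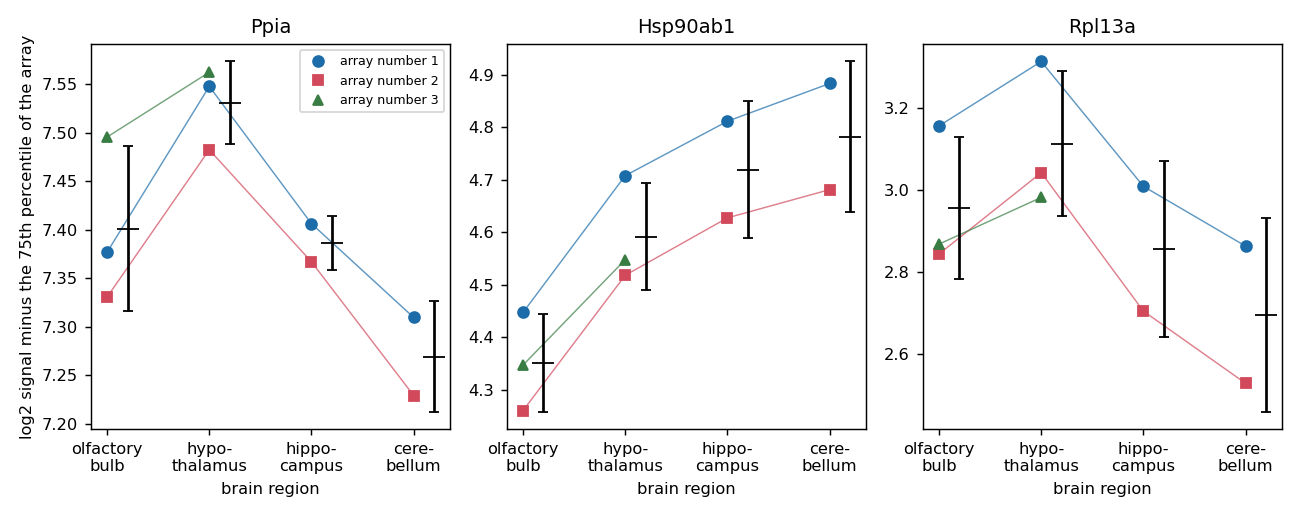
Log2 signal minus the 75th percentile of the array (y) of Ppia, Hsp90ab1 and Rpl13a in the 4 regions (x), as points for the 10 arrays joined by replicate number, with the region mean and SD beside them. The lines of a shared number run nearly parallel for Hsp90ab1 and Rpl13a. Number 1 lies above number 2 in all 4 regions for each gene.

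The direction of the Ppia differences turned with the scaling. Under quantile normalization its mean was 17.86 ± 0.0599 for the olfactory bulb (SD, n = 3), 17.67 ± 0.0555 for the hypothalamus (SD, n = 3), 17.72 ± 0.0689 for the hippocampus (SD, n = 2) and 17.89 ± 0.0188 for the cerebellum (SD, n = 2), in log2 signal. The hypothalamus, the highest region on the 75th percentile scale, was then the lowest, and the cerebellum, the lowest before, was the highest. Hypothalamus minus cerebellum was -0.22 (limma adjusted p = 0.0955, with 26.8% of all probes called), and with the block -0.20 (adjusted p = 0.0128, with 41.2% called), against 0.23 with the block on the 75th percentile scale. Within numbers 1 and 2 it was -0.17 and -0.22 under quantile normalization and 0.24 and 0.25 on the 75th percentile scale, so that each scaling gave a repeatable difference of the opposite sign. Scaling by each array's median gave 0.26 (limma adjusted p = 0.0418, with 28.9% of all probes called), scaling by the mean of the 12 other named genes gave 0.07 (adjusted p = 0.526), and no scaling gave -0.17 (adjusted p = 0.0971). No region was the highest for Ppia in all of these scalings.

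For Hsp90ab1 the order cerebellum, hippocampus, hypothalamus, olfactory bulb (from high to low) was the same under the 75th percentile, the median, quantile normalization and the mean of the 12 other named genes. Without scaling the hypothalamus was the lowest in place of the olfactory bulb. The cerebellum was the highest under all 5 scalings. Olfactory bulb minus cerebellum was called under each of them: -0.58 under quantile normalization (limma adjusted p = 0.00733, with 22.7% of all probes called), -0.42 with the median (adjusted p = 0.0091, 24.6%), -0.64 with the 12 other named genes (adjusted p = 0.000297, 29.6%) and -0.37 without scaling (adjusted p = 0.0328, 23.6%). Of the 6 pairs, 1 was called on the 75th percentile scale, 2 with the median, 2 under quantile normalization, 3 without scaling and 5 with the 12 other named genes. Over the 6 pairs together, the share of all probes called was 24.8% with the median, 22.7% under quantile normalization, 34.6% without scaling and 27.7% with the 12 other named genes. Without the block, the pair whose sign differed between scalings was olfactory bulb minus hypothalamus, at -0.24 on the 75th percentile scale and 0.25 without scaling, where the median of all probes itself shifted by 0.46.

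For Rpl13a the hypothalamus was the highest and the cerebellum the lowest under the 75th percentile, the median, quantile normalization and the 12 other named genes. Hypothalamus minus cerebellum was 0.42, 0.41, 0.36 and 0.22 under these, in that order, with limma adjusted p from 0.0721 to 0.239. Without scaling it was -0.02 (adjusted p = 0.94), while the median of all probes shifted by -0.45. Without the block 0 of the 6 pairs were called for Rpl13a under any of the 5 scalings. The scaling by the 12 other named genes moved the median of all probes by -0.23 to -0.03 across the 6 pairs, so its values are read against that shift.

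**Figure D3:**
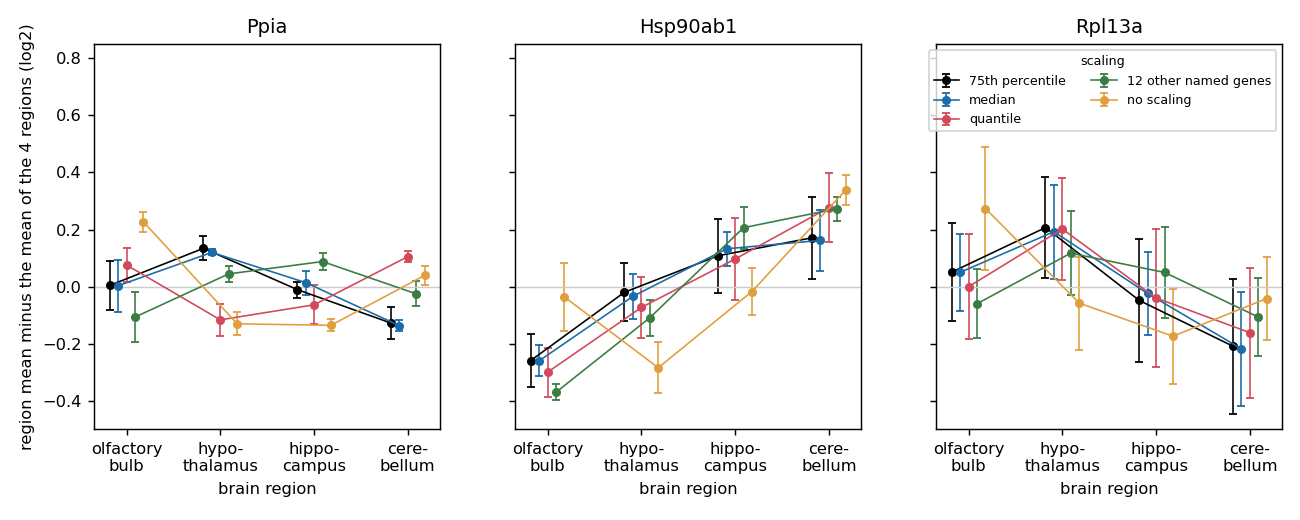
Region mean minus the mean of the 4 regions (y, log2; bars are the SD over arrays, n = 3, 3, 2 and 2) of Ppia, Hsp90ab1 and Rpl13a in the 4 regions (x) under 5 scalings. Hsp90ab1 is highest in the cerebellum under all of them, Rpl13a is highest in the hypothalamus except without scaling, and the lines of Ppia cross.

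The difference between 2 of these probes on the same array does not depend on scalings that subtract 1 value per array. Its change between regions was compared. Only that change is read, since the signals of different probes cannot be set against each other. Quantile normalization does alter such differences, and they were not tested under it. Hsp90ab1 minus Ppia averaged -3.05 ± 0.111 (log2) for the olfactory bulb (SD, n = 3), -2.94 ± 0.0898 for the hypothalamus (SD, n = 3), -2.67 ± 0.102 for the hippocampus (SD, n = 2) and -2.49 ± 0.0858 for the cerebellum (SD, n = 2). The span of 0.56 is a 1.48-fold change of the ratio, and it passed an exact two-sided permutation test over 25200 assignments of the arrays to regions (p = 0.00413, 0.00619 adjusted over the 3 gene pairs). The hippocampus and cerebellum arrays all lay above the olfactory bulb and hypothalamus arrays. Within replicate numbers 1 and 2, olfactory bulb minus cerebellum was -0.50 and -0.52. The number 3 arrays, of the olfactory bulb and hypothalamus only, were the lowest of their regions (-3.15 and -3.01).

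Hsp90ab1 minus Rpl13a changed most. It was 1.29, 1.42 and 1.48 on the olfactory bulb arrays and 1.40, 1.48 and 1.57 on the hypothalamus arrays. It was 1.80 and 1.92 on the hippocampus arrays, and 2.02 and 2.15 on the cerebellum arrays. The regions formed an overlapping lower pair, the olfactory bulb and the hypothalamus, then the hippocampus, then the cerebellum, with no overlap between these steps. The span of 0.69 is a 1.61-fold change of the ratio (exact permutation p = 0.000794, adjusted 0.00238). Within replicate numbers 1 and 2, olfactory bulb minus cerebellum was -0.73 and -0.73, hypothalamus minus hippocampus was -0.41 and -0.45, and hippocampus minus cerebellum was -0.22 and -0.23.

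Rpl13a minus Ppia changed least on this scale. Under quantile normalization, hypothalamus minus cerebellum was 0.36 for Rpl13a and -0.22 for Ppia, so these genes moved apart there. On the processed signal the difference was steadier. It averaged -4.45 ± 0.206 for the olfactory bulb (SD, n = 3), -4.42 ± 0.174 for the hypothalamus (SD, n = 3), -4.53 ± 0.187 for the hippocampus (SD, n = 2) and -4.57 ± 0.179 for the cerebellum (SD, n = 2). The span of 0.15 did not pass (exact permutation p = 0.775, adjusted 0.775), and all regions overlapped. With assignments permuted within the replicate block (1152 of them), the exact p was 0.0139 (adjusted 0.0139). Within numbers 1 and 2, olfactory bulb minus cerebellum was 0.23 and 0.21, and hypothalamus minus cerebellum was 0.21 and 0.26. For each of the pairs with Hsp90ab1 that test gave an exact permutation p of 0.00347 (adjusted 0.00521), the smallest it can give here.

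**Figure D4:**
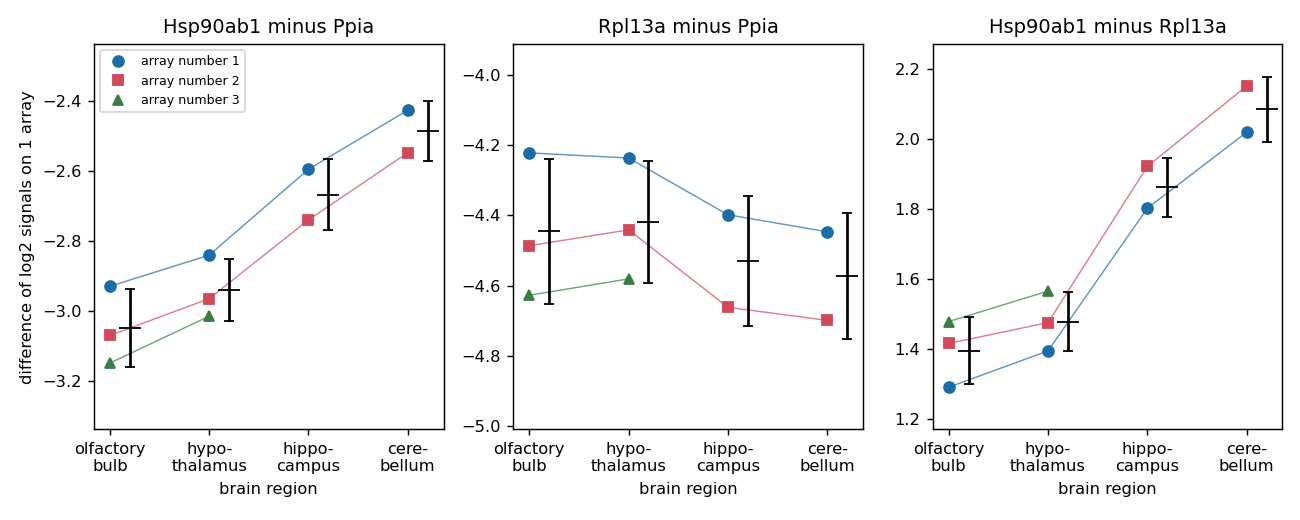
Difference of the log2 signals of 2 genes on the same array (y) in the 4 regions (x), as points for the 10 arrays joined by replicate number, with region means and SDs and equal y ranges in the 3 panels. Both differences that hold Hsp90ab1 climb toward the cerebellum, by 0.56 and 0.69, and Rpl13a minus Ppia spans 0.15.

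Likeness to other genes was described by the SD, over the 10 arrays, of the log2 ratio to each of the 14 other named genes, with no test. For Ppia the nearest were Tfrc, the transferrin receptor gene (SD 0.102), Gapdh, a glycolytic enzyme gene (SD 0.104), and Rpl13a (SD 0.166). For Hsp90ab1 they were Gapdh (SD 0.176), Tfrc (SD 0.21) and Ppia (SD 0.242). For Rpl13a they were Gapdh (SD 0.151), Ppia (SD 0.166) and Gk, the glycerol kinase gene (SD 0.194). Gapdh is thus among the 3 nearest of all 3 genes. Within regions the ratio of Hsp90ab1 to Gapdh varied with an SD of 0.0181, against 0.176 over all 10 arrays. This is not particular to Gapdh. The SD of the Hsp90ab1 ratio was smaller within regions for each of the 14 named genes, such as Gusb (0.0289 against 0.446) and B2m (0.0369 against 0.422).

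Averaged over the 14 ratios, the SD was 0.275 for Ppia, the smallest of the 15 named genes. It was 0.297 for Rpl13a, the fourth smallest, and 0.365 for Hsp90ab1, which ranked 9 of 15. The widest was 0.738, for Ldhal6b, a lactate dehydrogenase-like gene. Among 49615 array-design probes (those above background throughout), the median SD of the ratio was 0.355 to Ppia, 0.393 to Hsp90ab1 and 0.405 to Rpl13a. The nearest were ASMM10P037656 (SD 0.0333) and ASMM10P047857 (SD 0.0342) for Ppia, ASMM10P050331 (SD 0.0441) and ASMM10P001769 (SD 0.0473) for Hsp90ab1, and ASMM10P048956 (SD 0.0361) and ASMM10P050731 (SD 0.0414) for Rpl13a, none of which carries a gene name in the files. These SDs share the scans and their depth of signal, and each named probe was picked as the smallest of many.

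**Figure D5:**
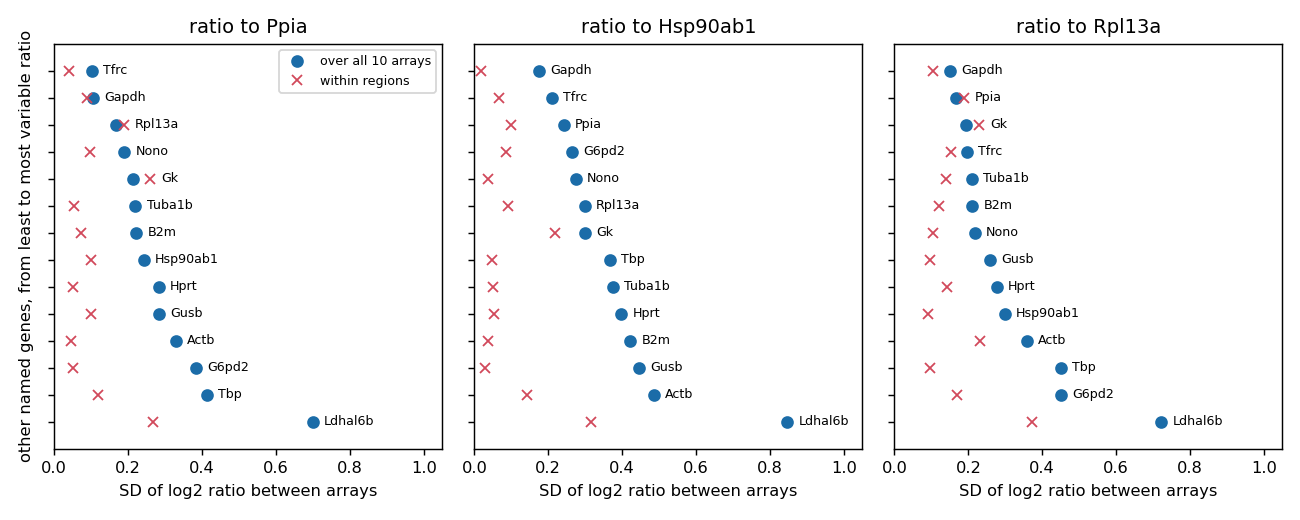
SD of the log2 ratio between arrays (x) of Ppia, Hsp90ab1 and Rpl13a to each of the 14 other named genes (y, from least to most variable), over all 10 arrays (dots) and within regions (crosses). Gapdh and Tfrc lead for Ppia and Hsp90ab1, and the ratio of Hsp90ab1 to Gapdh has an SD of 0.176 over all arrays and 0.0181 within regions. In the Hsp90ab1 panel every cross lies left of its dot.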

How the data were processed

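Each of the 12 scans is a 1-colour Arraystar array. Spot intensities were extracted by the authors in Agilent Feature Extraction 11.0.1.1, per the submitters' processing notes. Per the file headers, the deposited processed signal (intensity) has background subtracted and a spatial trend removed. Per the labels' protocols, RNA was depleted of ribosomal RNA and labelled by random priming. The authors' value table holds 0 probes of these genes and was not used (12 columns).

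Outlier spots (6 to 69 per scan) were dropped, copies averaged on the log2 scale, and the 75th percentile of each scan subtracted. Probes well above background on all scans of a region were tested (56573, of which 51372 met this throughout). In R 4.3.3, limma 3.58.1 (lmFit, eBayes) fitted 1 mean per region with 6 residual degrees of freedom, or 4 with the replicate block. Adjustment was by Benjamini-Hochberg over all probes tested. Within-array differences were tested by exact permutation in Python 3.11.15. Code was tested on simulated data. For arrays, their number limits the precision.

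The replicate number opens each sample title and coincides with the scan time of the 10 arrays counted. Across probes, array deviations from the region mean had r from 0.0934 to 0.747 in 13 pairs of equal number, and from -0.733 to 0.381 in other pairs. Deviations cancel out within a region, and those of the hippocampus and cerebellum, with 2 arrays each, are mirror images. The r of unequal numbers is therefore partly fixed by the r of equal numbers, and the contrast was not tested. The labels do not say whether numbers follow animals, so batch and animal cannot be told apart.

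The members, lists and tests were chosen with earlier results of these data known. By rule, all 3 members were reported, with the 3 named genes and the 2 array-design probes of smallest SD of the log2 ratio. Alternatives were quantile normalization, scaling by the median, by the 12 other named genes or not at all, normexp (offset 50) on the median spot signal, medians of copies, outlier spots kept, other filters, eBayes with trend and robust variance, all scans as arrays, the first scan of each near-identical pair, fits of 2 regions alone, and each array left out. The 4 scalings with the replicate block were added after the data were seen.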

Additional observations from a re-analysis of the deposited data

How the results depend on the processing

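All copies were well above background, and the 10 arrays limit the precision. In this paragraph OB, HY, HI and CB stand for the olfactory bulb, hypothalamus, hippocampus and cerebellum, a pair is the first minus the second (log2), and p is the adjusted p of limma. Medians of copies, outlier spots kept, the first scan of each near-identical pair and both other filters on dim probes changed no call over 4 regions and reversed nothing. The authors' value table was not run, since it holds 0 of these probes.

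For Hsp90ab1 over 4 regions, p was 0.0184 with quantile normalization, 0.0148 with medians, 0.00701 without scaling, 0.000465 with the 12 other named genes, 0.0471 with normexp, 0.0085 with all 12 scans and 0.0322 with trend and robust variance, against 0.0637. Its called pairs were 2, 2, 3 and 5 under the scalings (in that order), 2 with all 12 scans and 2 with trend and robust variance, against 1. For Ppia, p was 0.00637 without scaling, and called pairs were 1 with medians, 2 without scaling, 1 with all 12 scans and 1 with trend and robust variance, against 0. Over the 6 pairs together, the share of all probes called was 22.7% with quantile normalization and 24.8% with medians. It was 34.6% without scaling and 27.7% with the 12 other named genes. The Ppia counts lay near or below the share of all probes. Probes called over 4 regions were 31290 without scaling, against 20406. Of the 56573 probes tested, the number called per pair was 13256 to 20303 with all 12 scans. It was 9771 to 14849 with trend and robust variance, against 9586 to 14800.

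With the replicate block (the pairing by number), p over 4 regions was 0.0278 for Ppia, 0.00122 for Hsp90ab1 and 0.0013 for Rpl13a, with 2, 4 and 6 called pairs, and Rpl13a minus Ppia had an exact permutation p of 0.0139. Called probes per pair were 18430 to 23814 with the block, against 9586 to 14800. Ppia OB-HI was -0.017. With block and quantile normalization, p was 0.0121, 0.000636 and 0.00166. Called pairs were 4, 6 and 4, against 37.6% of all probes over the 6 pairs together, and 30050 probes were called over 4 regions. With block and no scaling, p was 0.00294, 0.0013 and 0.00146. Called pairs were 4, 5 and 4, against 48.4% of all probes over the 6 pairs together, and 39581 probes were called over 4 regions. With block and medians, p was 0.0827 for Ppia, which did not pass, 0.00453 for Hsp90ab1 and 0.00486 for Rpl13a. Called pairs were 1, 4 and 3, against 36.1% of all probes over the 6 pairs together, and 29726 probes were called over 4 regions. With block and the 12 other named genes, p was 0.0314, 0.000358 and 0.0108. Called pairs were 2, 5 and 3, against 41.7% of all probes over the 6 pairs together, and 33922 probes were called over 4 regions.

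Directions reversed mostly for Ppia. With quantile normalization, Ppia OB-HY was 0.19, OB-CB -0.030, HY-HI -0.053, HY-CB -0.22 and HI-CB -0.17, and with the block 0.19, -0.0083, -0.031, -0.20 and -0.17. With medians, OB-HI was -0.011, and with the block -0.038. Without scaling, Ppia OB-HY was 0.36, HY-CB -0.17 and HI-CB -0.18, Hsp90ab1 OB-HY 0.25, and Rpl13a OB-HY 0.33, HY-CB -0.016 and HI-CB -0.13. With the block as well, Ppia OB-HY was 0.36, HY-HI -0.0097, HY-CB -0.18 and HI-CB -0.18, Hsp90ab1 OB-HY 0.25 and OB-HI 0.0093, and Rpl13a OB-HY 0.33 and HI-CB -0.13. With the 12 other named genes, Ppia OB-HI was -0.19, OB-CB -0.081 and HY-HI -0.043, and Rpl13a OB-HI -0.11. With the block these were -0.22, -0.11, -0.070 and -0.050. The cause was not tested.

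Leaving out 1 array at a time, p over 4 regions was 0.194 to 0.424 for Ppia, 0.0686 to 0.189 for Hsp90ab1 and 0.256 to 0.609 for Rpl13a. Called pairs were 0 to 0 for Ppia and Rpl13a and 0 to 1 for Hsp90ab1. Ppia OB-HI was -0.033 to 0.050, Hsp90ab1 HI-CB -0.16 to 0.038, Rpl13a OB-HI -0.053 to 0.25 and Rpl13a HI-CB -0.0064 to 0.33. The exact permutation adjusted p was 0.00952 to 0.0309 for Hsp90ab1 minus Ppia, 0.00595 to 0.0143 for Hsp90ab1 minus Rpl13a and 0.6 to 0.908 for Rpl13a minus Ppia. In a fit of 2 regions alone, Hsp90ab1 OB-CB was -0.43 (limma adjusted p = 0.124).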
